A study of Mus musculus with 23 samples.

Results

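The genes described here are a list of 38 genes of hepatic stellate cells and of the extracellular matrix, measured in mouse liver. They were taken from the list by gene symbol, and each gene was represented by the single-gene probe set (the group of array probes for a transcript) with the highest mean signal over all samples. Of the 38 genes, 36 had such a probe set, out of 18193 genes with one in the whole data set. Fbn1 and Loxl2 had none and are not analysed here. The list was not chosen by measured values, but it was drawn up with earlier results of these arrays known.

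The study hybridised 23 liver RNA samples from male C3H mice to Affymetrix arrays. The CTNNB1KO_PB group (7 arrays) and the CTNNB1KO_H2O group (7 arrays) carried a hepatocyte knockout of Ctnnb1 by label. Their labels name Alb-Cre, a recombinase under the hepatocyte-specific albumin promoter, and loxP sites flanking exons 3 and 6 of Ctnnb1. The WT_PB group (4 arrays) and the WT_H2O group (5 arrays) were wild type, with no Cre or loxP allele named in their labels. Both PB groups were given 0.05% phenobarbital, a barbiturate that induces drug-metabolising enzymes in liver, in the diet for 12 weeks. The H2O groups were kept on a diet without phenobarbital, and their labels also name a water vehicle. Because Cre was expressed in hepatocytes, Ctnnb1 of stellate cells and other non-parenchymal cells was not the target of the deletion. Whether every array stands for its own animal is not in the labels, and all p-values given here reflect array-to-array spread, which may be technical.

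Hepatic stellate cells lie between hepatocytes and the sinusoidal endothelium and store vitamin A as retinyl esters while quiescent. After liver injury they can turn into contractile myofibroblasts that secrete fibrillar collagens, proteoglycans and matrix-modifying enzymes, under signals such as transforming growth factor beta and platelet-derived growth factor. Portal fibroblasts, vascular smooth muscle and endothelium also make parts of the matrix, and hepatocytes secrete some of its proteins, plasma fibronectin among them.

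All values are log2 signals after RMA normalization, so a difference of 1 is a doubling of signal, and the level of a probe set is compared only with itself across arrays. A gene was called changed when limma gave an adjusted p under 0.05 over the 13826 genes tested. Precision is limited by the 4 to 7 arrays per group. Glul, the glutamine synthetase of pericentral hepatocytes, differed by -3.51 between CTNNB1KO_H2O and WT_H2O (adjusted p = 6.5e-09), and Cyp2b10, a phenobarbital-inducible cytochrome P450, rose by 3.01 with phenobarbital in CTNNB1KO livers (adjusted p = 2.19e-06). Ctnnb1 itself averaged 12.19 ± 0.094 in CTNNB1KO_PB, 12.25 ± 0.11 in CTNNB1KO_H2O, 12.07 ± 0.032 in WT_PB and 12.20 ± 0.024 in WT_H2O (SD), and where its probes lie relative to the deleted exons was not established. The 6 hepatocyte markers, Alb and Ttr among them, averaged 14.08 in CTNNB1KO_PB and 14.10 in CTNNB1KO_H2O, against 13.97 in WT_PB and 14.01 in WT_H2O.

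Within the CTNNB1KO groups the arrays were uneven. The median SD of the 36 genes was 0.301 in CTNNB1KO_PB and 0.533 in CTNNB1KO_H2O, against 0.151 in WT_PB and 0.173 in WT_H2O, whereas the median SD over all tested genes lay between 0.0937 and 0.160 in the 4 groups. Replicates 2, 6 and 7 of CTNNB1KO_H2O had the lowest array weights of all 23 arrays in a fit over all genes (0.54, 0.324 and 0.21). Of the 36 genes, 33, 35 and 26 lay above the CTNNB1KO_H2O mean in these 3 arrays, and replicate 6 was the highest array of the group for 24 genes. Results that rest on this group are given with all arrays, and without these 3 where that ends a call or moves a fold by more than 1.5 times.

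In CTNNB1KO_H2O livers, 27 of the 36 genes rose relative to WT_H2O livers and none fell, whereas 14.8% of all tested genes rose and 10.1% fell in this comparison. The median difference of the 36 genes was 1.15, beside -0.00473 for all tested genes. Every one of the 36 differences was positive, and for 23 genes all 7 CTNNB1KO_H2O arrays lay above all 5 WT_H2O arrays, as did 6.98% of all tested genes. In CTNNB1KO_PB livers, 18 of the 36 genes rose relative to WT_PB livers and none fell, against 11.9% higher and 8.12% lower among all tested genes. The median difference was 0.79 there, beside 0.00237 for all genes, and 24 of the 36 genes had no overlap between the groups, against 11.2% of all tested genes. Without replicates 2, 6 and 7 of CTNNB1KO_H2O, 21 genes rose in CTNNB1KO_H2O over WT_H2O, with 7.07% of all genes higher, and the median difference was 0.78. A count without overlap cannot fall when arrays are left out, so it is not compared. In that fit 27 genes rose in CTNNB1KO_PB over WT_PB, with 17.5% of all genes higher, so the order of the 2 counts turned. It also turned with array weights and with only the compared groups in the fit, each of which gave 24 genes without and 26 with phenobarbital. The share of all tested genes that were higher turned as well. It was 11% without and 19.3% with phenobarbital under array weights, and 9.19% and 15.1% with only the compared groups. Bmper and Loxl1 were below the filter level of about 4.56 in every WT array and so passed the filter only through the CTNNB1KO arrays. Leaving both out, 25 of 34 genes rose in the untreated comparison and 17 of 34 in the phenobarbital comparison. The counts without overlap still include Bmper, and that of the PB groups also includes Loxl1. Whole liver was assayed, so more cells of a type and more RNA per cell cannot be told apart.

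**Figure D1:**
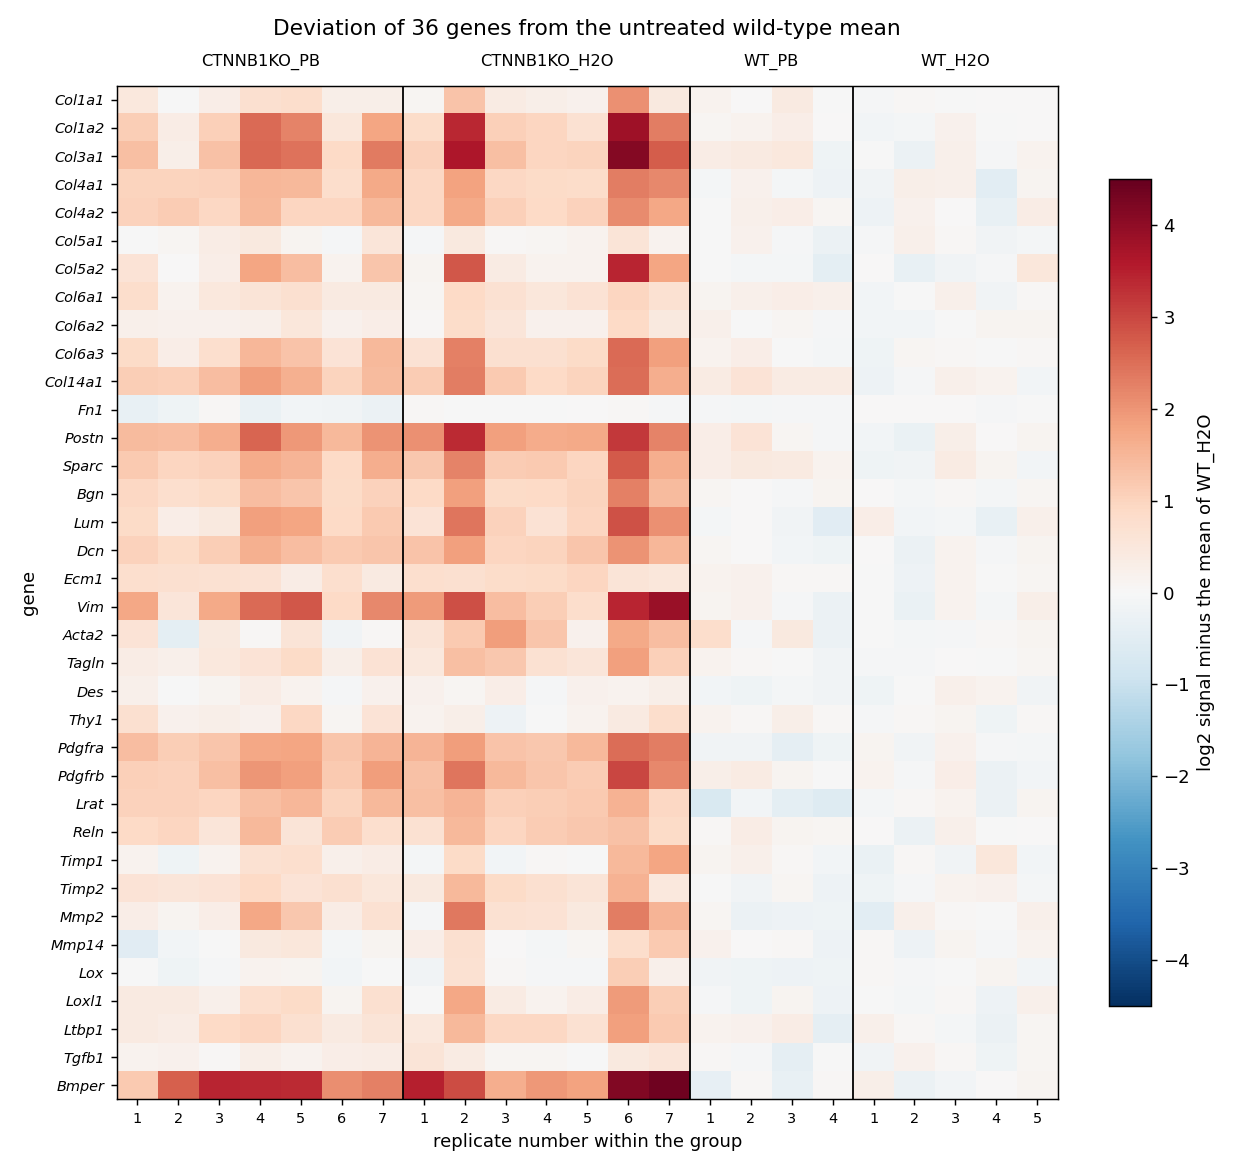
Deviation of each array from the WT_H2O mean for the 36 genes, as a colour scale in log2 signal, with genes down the page and arrays of the 4 groups from left to right. Red marks higher signal. The CTNNB1KO arrays are red for most genes, with replicates 2, 6 and 7 of CTNNB1KO_H2O the darkest, and the WT arrays stay pale in both treatments.

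Stellate cell and fibroblast markers were among the genes that separated the genotypes most evenly: 4 of 5 rose in both comparisons of CTNNB1KO with WT. Lrat makes the retinyl esters that quiescent stellate cells store. Lrat had a lowest, a median and a highest signal of 8.15, 8.22 and 8.67 in CTNNB1KO_PB arrays and 8.10, 8.36 and 8.75 in CTNNB1KO_H2O arrays (these 3 values are given in this order for every gene). Lrat values in WT livers were 6.49, 7.04, 6.72 and 6.58 in WT_PB and 7.07, 7.23, 7.34, 6.92 and 7.29 in WT_H2O. Every CTNNB1KO array lay above every WT array, by 1.25 ± 0.13 log2 units (SE, adjusted p = 5.29e-07) without phenobarbital and by 1.66 ± 0.14 (adjusted p = 1.29e-08) with it. Reln, a secreted glycoprotein made in liver by stellate cells, had a similar layout. Reln had 9.41, 9.76 and 10.33 in CTNNB1KO_PB arrays and 9.56, 10.02 and 10.34 in CTNNB1KO_H2O arrays. In WT livers Reln read 8.92, 9.19, 8.999 and 8.95 in WT_PB and 8.90, 8.61, 9.10, 8.85 and 8.89 in WT_H2O. The groups again did not overlap between genotypes. Reln was higher by 1.09 ± 0.14 (adjusted p = 1.38e-05) in CTNNB1KO_H2O and by 0.76 ± 0.15 (adjusted p = 0.00139) in CTNNB1KO_PB.

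Receptors of platelet-derived growth factor, a mitogen of stellate cells and fibroblasts, also rose in both comparisons. Pdgfra had 7.83, 8.10 and 8.51 in CTNNB1KO_PB arrays and 7.93, 8.25 and 9.23 in CTNNB1KO_H2O arrays. Pdgfra values in WT livers were 6.56, 6.57, 6.33 and 6.52 in WT_PB and 6.83, 6.56, 6.90, 6.65 and 6.64 in WT_H2O. All CTNNB1KO arrays exceeded all WT arrays for Pdgfra. Its difference was 1.74 ± 0.18 (adjusted p = 7.92e-07) in the H2O groups and 1.66 ± 0.20 (adjusted p = 3.54e-06) in the PB groups. Pdgfrb had 7.56, 7.85 and 8.499 in CTNNB1KO_PB arrays and 7.65, 7.97 and 9.53 in CTNNB1KO_H2O arrays. In WT livers Pdgfrb read 6.78, 6.88, 6.62 and 6.50 in WT_PB and 6.66, 6.47, 6.80, 6.25 and 6.37 in WT_H2O. For Pdgfrb too the genotypes did not overlap in either treatment. It differed by 1.82 ± 0.26 (adjusted p = 5.32e-05) and by 1.30 ± 0.28 (adjusted p = 0.00283), in the same order of comparisons. In a fit over all probe sets, both Pdgfrb probe sets were called without phenobarbital and 1 of the 2 with it. Averaging all probe sets of a gene lowered the untreated difference to 0.60 for Pdgfra (adjusted p = 0.000121) and 1.12 for Pdgfrb (0.000203), and the PB difference of Pdgfra to 0.57 (0.000431). Thy1, a surface glycoprotein of portal fibroblasts and lymphocytes, was not called in any comparison. Thy1 had 5.10, 5.29 and 5.94 in CTNNB1KO_PB arrays and 4.79, 5.19 and 5.81 in CTNNB1KO_H2O arrays. Thy1 values in WT livers were 5.18, 5.09, 5.29 and 5.08 in WT_PB and 4.98, 5.08, 5.13, 4.83 and 5.08 in WT_H2O. These groups overlapped.

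**Figure D2:**
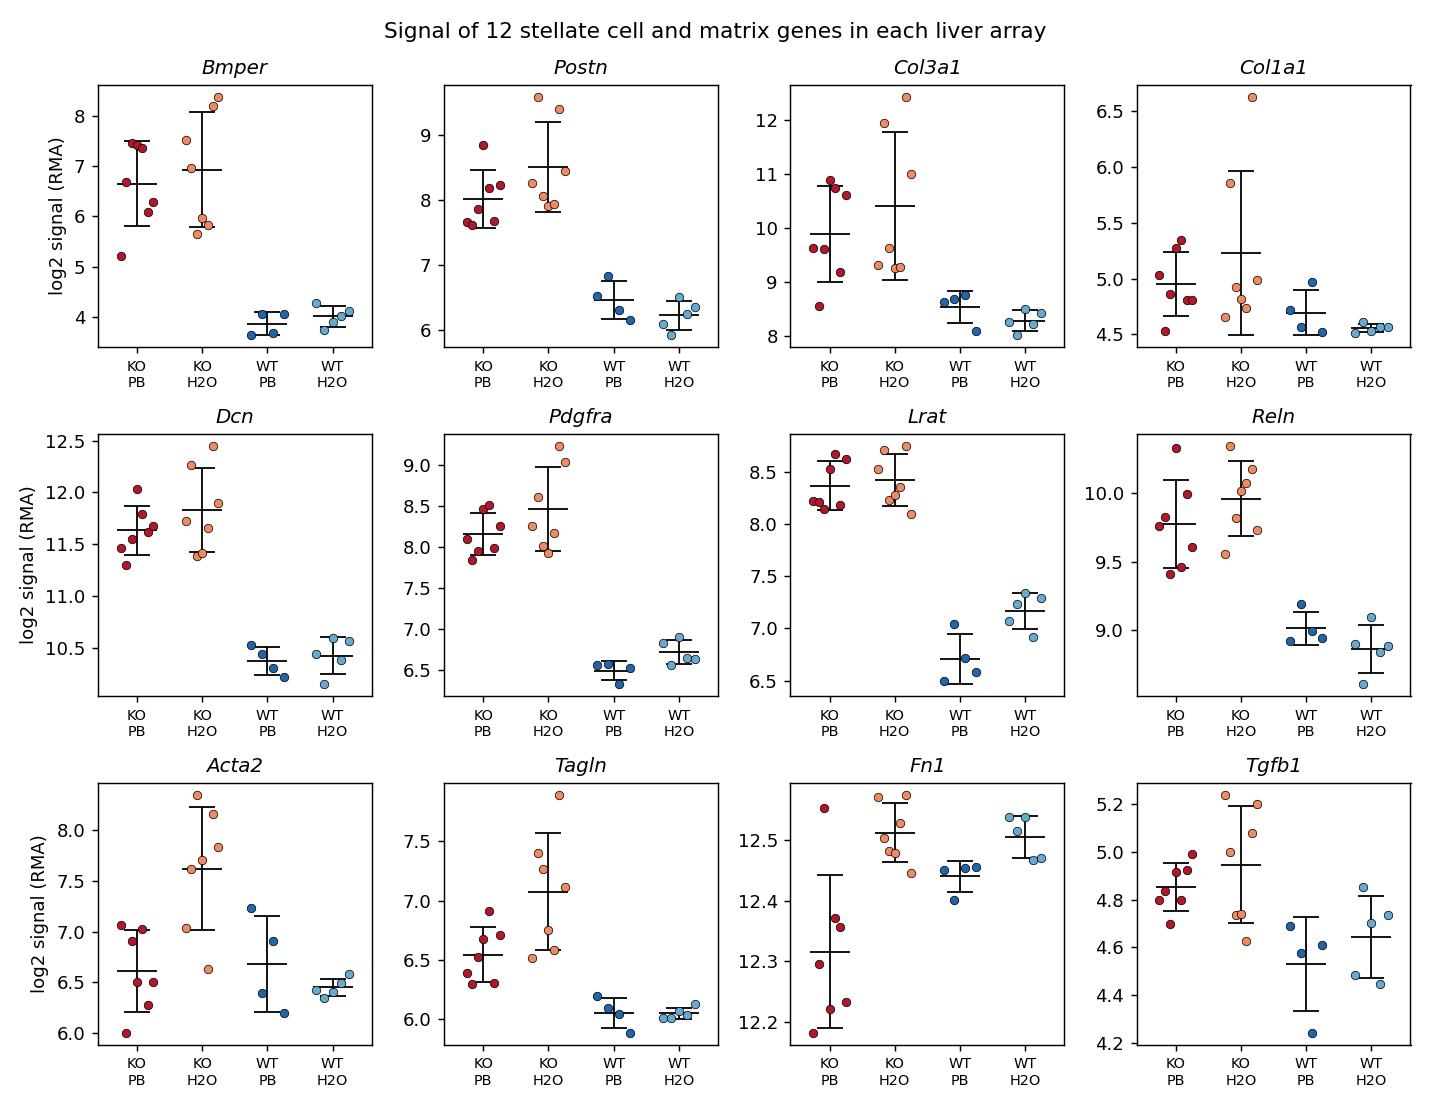
Log2 signal of 12 of the genes in each array (points), with the group mean and SD (bars), for CTNNB1KO_PB, CTNNB1KO_H2O, WT_PB and WT_H2O from left to right. Vertical axes differ between genes. Lrat, Reln, Pdgfra, Dcn, Postn, Tagln and Bmper have no overlap between CTNNB1KO and WT arrays. Acta2 is highest in part of the CTNNB1KO_H2O arrays, and Fn1 spans less than 0.5.

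Cytoskeletal and contractile genes were less uniform than the markers. Acta2 encodes smooth muscle alpha-actin, the usual marker of myofibroblasts and also a protein of vascular smooth muscle. In CTNNB1KO_PB livers its 7 arrays read 7.06, 6.003, 6.91, 6.50, 7.02, 6.28 and 6.50, and in CTNNB1KO_H2O livers 7.03, 7.62, 8.35, 7.71, 6.63, 8.15 and 7.83. Acta2 values in WT livers were 7.23, 6.39, 6.91 and 6.20 in WT_PB and 6.43, 6.35, 6.40, 6.49 and 6.58 in WT_H2O. Only the CTNNB1KO_H2O group lay wholly above its WT counterpart. Acta2 differed by 1.17 ± 0.25 (adjusted p = 0.00212) between the H2O groups, and by -0.072 ± 0.27 (adjusted p = 0.874) between the PB groups. The mean of its probe sets differed by 0.31 (0.0176) between the H2O groups. Tagln encodes transgelin, an actin-binding protein of smooth muscle and myofibroblasts. Tagln had 6.29, 6.53 and 6.92 in CTNNB1KO_PB arrays and 6.52, 7.11 and 7.89 in CTNNB1KO_H2O arrays. In WT livers Tagln read 6.19, 6.09, 6.04 and 5.89 in WT_PB and 6.01, 6.01, 6.07, 6.04 and 6.13 in WT_H2O. All CTNNB1KO arrays were above all WT arrays of both treatments. Tagln rose by 1.02 ± 0.17 (adjusted p = 0.000255) without phenobarbital, and with phenobarbital the difference was 0.49 ± 0.19 (adjusted p = 0.0649). Vim encodes vimentin, the intermediate filament of mesenchymal and many immune cells. Vim had 7.68, 8.88 and 9.92 in CTNNB1KO_PB arrays and 7.91, 9.04 and 11.03 in CTNNB1KO_H2O arrays. Vim values in WT livers were 7.26, 7.33, 7.08 and 6.85 in WT_PB and 7.13, 6.82, 7.29, 7.04 and 7.39 in WT_H2O. The CTNNB1KO arrays lay above the WT arrays and spread over more than 2 log2 units in each group. Vim rose by 2.20 ± 0.46 (adjusted p = 0.00174) in CTNNB1KO_H2O, or by 1.30 (adjusted p = 0.0191) without replicates 2, 6 and 7, and by 1.77 ± 0.49 (adjusted p = 0.0148) in CTNNB1KO_PB. Des, the muscle-type intermediate filament desmin, which rodent stellate cells express, moved little. Des had 6.07, 6.26 and 6.45 in CTNNB1KO_PB arrays and 6.06, 6.29 and 6.43 in CTNNB1KO_H2O arrays. In WT livers Des read 6.002, 5.92, 6.01 and 5.96 in WT_PB and 5.91, 6.11, 6.34, 6.29 and 5.95 in WT_H2O. Its difference was 0.16 ± 0.079 (adjusted p = 0.139) without phenobarbital and 0.28 ± 0.085 (adjusted p = 0.0249) with it. The second call did not hold without CTNNB1KO_PB replicate 4, WT_PB replicate 2 or WT_PB replicate 4, for which the adjusted p was 0.0526, 0.0678 and 0.063.

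The promoter of Acta2 is shown because the gene had the largest response to phenobarbital in the list. The sequence is RefSeq's, build GRCm38.p6, chr19:34255324-34255623, minus strand, 250 bases before and 50 bases from the transcription start, 5′ to 3′. Capitals mark matches to the CArG box, the binding motif of serum response factor, searched on both strands with A or T at its 6 inner positions and 1 of these left free.
Acta2 promoter: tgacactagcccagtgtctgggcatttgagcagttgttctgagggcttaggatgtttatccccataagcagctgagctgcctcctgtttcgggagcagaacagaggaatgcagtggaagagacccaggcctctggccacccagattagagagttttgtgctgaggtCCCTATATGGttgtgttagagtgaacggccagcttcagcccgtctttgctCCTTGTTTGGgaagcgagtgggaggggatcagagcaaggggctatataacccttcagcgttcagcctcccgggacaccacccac
The 2 matches begin 84 and 34 bases before the start used for the window, base 34255373. RefSeq annotates the gene up to base 34255585, so most of the window lies inside the annotated gene. A match with 1 inner base free occurred in 9.98% of the 32851 promoter windows, and in those of 6 of the 25 genes of the list that have a window: Acta2, Col1a2, Col6a3, Lrat, Ltbp1 and Mmp14. The strict motif occurred in 1.63% of all windows and in none of the list. These matches describe letters only and are not evidence of binding.

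Of the 5 fibrillar collagen genes, whose products are the main fibres of scar tissue, 2 rose in CTNNB1KO_H2O and none passed in CTNNB1KO_PB over WT_PB. Col3a1 had 8.55, 9.63 and 10.89 in CTNNB1KO_PB arrays and 9.26, 9.63 and 12.43 in CTNNB1KO_H2O arrays. Col3a1 values in WT livers were 8.63, 8.68, 8.75 and 8.10 in WT_PB and 8.26, 8.01, 8.498, 8.22 and 8.43 in WT_H2O. Col1a2 had 7.55, 8.33 and 9.75 in CTNNB1KO_PB arrays and 7.90, 8.30 and 11.05 in CTNNB1KO_H2O arrays. In WT livers Col1a2 read 7.29, 7.38, 7.51 and 7.24 in WT_PB and 7.11, 7.13, 7.42, 7.21 and 7.22 in WT_H2O. For both genes the CTNNB1KO_H2O group ran far above its own median in 3 arrays. Col3a1 rose by 2.12 ± 0.51 (adjusted p = 0.005) and Col1a2 by 1.87 ± 0.48 (adjusted p = 0.00813) in CTNNB1KO_H2O. Without replicates 2, 6 and 7 the differences were 1.09 for Col3a1 (adjusted p = 0.0526) and 0.89 for Col1a2 (adjusted p = 0.0889), so neither call held. All 7 CTNNB1KO_H2O arrays lay above all WT_H2O arrays for both genes, which fixes the same for the remaining 4. In the PB groups the differences did not pass the test, at 1.35 ± 0.54 (adjusted p = 0.0835) for Col3a1 and 1.23 ± 0.52 (adjusted p = 0.0948) for Col1a2. Both passed with array weights, with only the compared groups in the fit and without CTNNB1KO_H2O replicates 2, 6 and 7 (adjusted p between 0.00481 and 0.0308 for Col3a1 and between 0.00523 and 0.0333 for Col1a2), and Col3a1 also without CTNNB1KO_H2O replicate 6 (0.0441) or CTNNB1KO_PB replicate 2 (0.041). Col1a1, the partner chain of Col1a2 in type I collagen, had a low signal on this array. Col1a1 had 4.53, 4.87 and 5.34 in CTNNB1KO_PB arrays and 4.65, 4.92 and 6.63 in CTNNB1KO_H2O arrays. Col1a1 values in WT livers were 4.71, 4.57, 4.97 and 4.52 in WT_PB and 4.51, 4.61, 4.53, 4.57 and 4.57 in WT_H2O. The 7 CTNNB1KO_H2O arrays lay above the 5 WT_H2O arrays, with a difference of 0.67 ± 0.25 (adjusted p = 0.0523). Leaving out CTNNB1KO_H2O replicate 1, 3, 4 or 5 brought the adjusted p to between 0.0317 and 0.0432. In a fit over all probe sets, 1 of the 2 Col1a1 probe sets was called in this comparison. The PB groups of Col1a1 differed by 0.26 ± 0.27 (adjusted p = 0.515).

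The type V collagen chains, which regulate fibril diameter, were not called with the probe sets used. Col5a2 had 5.72, 6.31 and 7.48 in CTNNB1KO_PB arrays and 5.81, 6.08 and 9.14 in CTNNB1KO_H2O arrays. In WT livers Col5a2 read 5.68, 5.62, 5.62 and 5.28 in WT_PB and 5.72, 5.37, 5.56, 5.66 and 6.21 in WT_H2O. Col5a2 differed by 1.26 ± 0.49 (adjusted p = 0.0632) in CTNNB1KO_H2O, with the same 4 omissions giving adjusted p-values between 0.0341 and 0.0419, and by 0.20 without replicates 2, 6 and 7. In the PB groups it differed by 0.93 ± 0.52 (adjusted p = 0.214). Col5a1 had 6.07, 6.23 and 6.65 in CTNNB1KO_PB arrays and 6.06, 6.25 and 6.68 in CTNNB1KO_H2O arrays. Col5a1 values in WT livers were 6.08, 6.30, 6.05 and 5.83 in WT_PB and 6.04, 6.34, 6.17, 5.96 and 6.01 in WT_H2O. Its arrays overlapped between genotypes. Col5a1 differed by 0.20 ± 0.12 (adjusted p = 0.212) without phenobarbital and by 0.25 ± 0.13 (adjusted p = 0.162) with it. Another Col5a1 probe set was called in the untreated comparison, at 1.23 (adjusted p = 0.00134), the remaining tested one was not, at 0.011 (adjusted p = 0.936), and the mean of its probe sets differed by 0.48 (0.0104).

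Basement membrane collagen was more even across arrays. Col4a1 and Col4a2 encode the chains of the common type IV collagen network and are transcribed divergently from a shared promoter. Col4a1 had 8.08, 8.32 and 9.01 in CTNNB1KO_PB arrays and 8.13, 8.23 and 9.60 in CTNNB1KO_H2O arrays. In WT livers Col4a1 read 7.20, 7.49, 7.20 and 7.08 in WT_PB and 7.15, 7.57, 7.53, 6.81 and 7.42 in WT_H2O. Col4a2 had 7.36, 7.48 and 7.90 in CTNNB1KO_PB arrays and 7.31, 7.51 and 8.56 in CTNNB1KO_H2O arrays. Col4a2 values in WT livers were 6.41, 6.67, 6.73 and 6.52 in WT_PB and 6.20, 6.61, 6.46, 6.10 and 6.77 in WT_H2O. Both genes had every CTNNB1KO array above every WT array. Col4a1 rose by 1.40 ± 0.25 (adjusted p = 0.000376) without phenobarbital and by 1.26 ± 0.27 (adjusted p = 0.00206) with it. Col4a2 rose by 1.35 ± 0.19 (adjusted p = 2.64e-05) and by 0.98 ± 0.20 (adjusted p = 0.00148), in the same order.

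The 2 promoter windows are printed because these neighbouring genes moved together. The RefSeq start sites used for the windows lie 21 bases apart on build GRCm38.p6. The genes overlap at their 5′ ends, with Col4a1 annotated up to base 11312889 and Col4a2 from base 11312805. The windows, chr8:11312777-11313076 (minus strand) for Col4a1 and chr8:11312555-11312854 (plus strand) for Col4a2, share 78 bases. Both run 5′ to 3′, and capitals mark the GC box GGGCGG on either strand.
Col4a1 promoter: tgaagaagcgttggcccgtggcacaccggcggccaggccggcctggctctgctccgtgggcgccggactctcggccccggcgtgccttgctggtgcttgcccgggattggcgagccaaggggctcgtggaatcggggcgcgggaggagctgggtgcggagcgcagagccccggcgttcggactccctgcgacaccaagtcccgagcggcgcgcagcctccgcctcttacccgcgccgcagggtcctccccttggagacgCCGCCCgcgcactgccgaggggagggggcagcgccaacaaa
Col4a2 promoter: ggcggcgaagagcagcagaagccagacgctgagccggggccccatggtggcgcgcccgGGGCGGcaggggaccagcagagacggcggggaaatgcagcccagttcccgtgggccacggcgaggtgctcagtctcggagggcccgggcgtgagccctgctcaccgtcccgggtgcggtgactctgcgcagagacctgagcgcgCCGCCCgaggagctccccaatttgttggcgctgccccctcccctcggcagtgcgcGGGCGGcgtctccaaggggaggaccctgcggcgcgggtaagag
The Col4a1 window holds 1 GC box and the Col4a2 window holds 3. The Col4a1 box lies within the shared bases and is also 1 of the 3 in the Col4a2 window. A GC box occurred in 35.7% of all 32851 windows and in those of 16 of the 25 listed genes with a window. The SMAD element CAGAC occurred in 49.6% of all windows and for 13 listed genes, and TATAAA in 13.6% of windows and for 4 listed genes, Col3a1, Ecm1, Postn and Vim. Other neighbours on the list were Col3a1 and Col5a2, 24624 bases apart on chromosome 1, Lum and Dcn, 47337 bases apart on chromosome 10, and Col6a1 and Col6a2, 85161 bases apart on chromosome 10.

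Microfibrillar and fibril-associated collagens all rose in CTNNB1KO_H2O livers (4 of 4), and 1 of 4, Col14a1, rose in CTNNB1KO_PB livers over WT_PB. Col14a1 coats collagen fibrils. Col14a1 had 8.70, 9.09 and 9.57 in CTNNB1KO_PB arrays and 8.60, 8.85 and 10.20 in CTNNB1KO_H2O arrays. In WT livers Col14a1 read 8.06, 8.32, 8.06 and 8.06 in WT_PB and 7.48, 7.63, 7.92, 7.86 and 7.57 in WT_H2O. The genotypes did not overlap. Its difference was 1.53 ± 0.23 (adjusted p = 7.42e-05) without phenobarbital, or 0.90 (0.000229) for the mean of its probe sets, and 0.92 ± 0.25 (adjusted p = 0.0114) with it. Col6a1, Col6a2 and Col6a3 make the beaded filaments of type VI collagen. Col6a3 had 6.77, 7.35 and 7.95 in CTNNB1KO_PB arrays and 7.12, 7.34 and 9.02 in CTNNB1KO_H2O arrays. Col6a3 values in WT livers were 6.63, 6.75, 6.45 and 6.39 in WT_PB and 6.28, 6.54, 6.53, 6.46 and 6.54 in WT_H2O. Col6a3 separated the genotypes in both treatments. It rose by 1.38 ± 0.29 (adjusted p = 0.00203) in CTNNB1KO_H2O, or by 0.75 (adjusted p = 0.0115) without replicates 2, 6 and 7, and the PB groups differed by 0.88 ± 0.31 (adjusted p = 0.0507). Col6a1 had 6.001, 6.32 and 6.62 in CTNNB1KO_PB arrays and 5.91, 6.53 and 6.82 in CTNNB1KO_H2O arrays. In WT livers Col6a1 read 5.95, 6.06, 6.14 and 6.05 in WT_PB and 5.72, 5.83, 6.08, 5.66 and 5.89 in WT_H2O. Col6a2 had 6.78, 6.83 and 7.12 in CTNNB1KO_PB arrays and 6.66, 7.04 and 7.48 in CTNNB1KO_H2O arrays. Col6a2 values in WT livers were 6.81, 6.56, 6.70 and 6.56 in WT_PB and 6.47, 6.49, 6.59, 6.71 and 6.72 in WT_H2O. These 2 chains overlapped between genotypes. Col6a1 rose by 0.65 ± 0.12 (adjusted p = 0.000798) and Col6a2 by 0.45 ± 0.12 (adjusted p = 0.00796) in CTNNB1KO_H2O, the call for Col6a2 being lost without replicates 2, 6 and 7 (0.25, adjusted p = 0.0877). In the PB groups the differences were 0.29 ± 0.13 (adjusted p = 0.124) and 0.21 ± 0.12 (adjusted p = 0.241).

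Matrix glycoproteins and proteoglycans held 6 of 7 genes that rose in both comparisons. Postn, a matricellular protein of fibrotic tissue, differed by 2.29 ± 0.27 (adjusted p = 3.79e-06) between the H2O groups and by 1.56 ± 0.29 (adjusted p = 0.000692) between the PB groups. Postn had 7.62, 7.87 and 8.84 in CTNNB1KO_PB arrays and 7.90, 8.26 and 9.59 in CTNNB1KO_H2O arrays. In WT livers Postn read 6.52, 6.83, 6.31 and 6.15 in WT_PB and 6.09, 5.92, 6.50, 6.24 and 6.36 in WT_H2O. Its lowest CTNNB1KO array exceeded its highest WT array. Dcn encodes decorin, a small leucine-rich proteoglycan that binds collagen and transforming growth factor beta. Dcn had 11.30, 11.62 and 12.04 in CTNNB1KO_PB arrays and 11.38, 11.72 and 12.45 in CTNNB1KO_H2O arrays. Dcn values in WT livers were 10.53, 10.44, 10.31 and 10.22 in WT_PB and 10.44, 10.15, 10.59, 10.38 and 10.56 in WT_H2O. The 14 CTNNB1KO arrays lay above the 9 WT arrays. Dcn rose by 1.40 ± 0.16 (adjusted p = 1.87e-06) and by 1.26 ± 0.17 (adjusted p = 1.89e-05), without and with phenobarbital. Bgn encodes biglycan, of the same proteoglycan class. Bgn had 9.84, 10.02 and 10.49 in CTNNB1KO_PB arrays and 9.94, 10.09 and 11.36 in CTNNB1KO_H2O arrays. In WT livers Bgn read 9.19, 9.11, 9.05 and 9.20 in WT_PB and 9.12, 8.99, 9.16, 8.999 and 9.19 in WT_H2O. There was no overlap between genotypes, with differences of 1.31 ± 0.19 (adjusted p = 5.24e-05) and 0.97 ± 0.20 (adjusted p = 0.00206).

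Lum encodes lumican, which binds collagen fibrils. Lum had 8.11, 8.70 and 9.63 in CTNNB1KO_PB arrays and 8.41, 8.83 and 10.68 in CTNNB1KO_H2O arrays. Lum values in WT livers were 7.73, 7.81, 7.63 and 7.29 in WT_PB and 8.10, 7.68, 7.72, 7.47 and 8.02 in WT_H2O. All CTNNB1KO arrays were above all WT arrays. Lum rose by 1.51 ± 0.35 (adjusted p = 0.0038), or 0.81 (adjusted p = 0.0453) without replicates 2, 6 and 7, and by 1.23 ± 0.37 (adjusted p = 0.024) in the PB groups. That second call was lost without CTNNB1KO_PB replicate 4 (adjusted p = 0.0506), WT_PB replicate 3 (0.0566) or WT_PB replicate 4 (0.0787). Sparc encodes osteonectin, a collagen-binding matricellular protein. Sparc had 8.99, 9.27 and 9.75 in CTNNB1KO_PB arrays and 9.04, 9.31 and 10.86 in CTNNB1KO_H2O arrays. In WT livers Sparc read 8.39, 8.52, 8.49 and 8.26 in WT_PB and 7.89, 7.93, 8.45, 8.21 and 7.95 in WT_H2O. The genotypes were apart in every array. Sparc rose by 1.59 ± 0.24 (adjusted p = 8.32e-05) and by 0.95 ± 0.26 (adjusted p = 0.0136). In a fit over all probe sets, 2 of its 3 were called in each comparison, and the other was not positive without phenobarbital. Ecm1 encodes a secreted glycoprotein that in mouse liver holds transforming growth factor beta in its latent form. Ecm1 had 8.37, 8.71 and 8.81 in CTNNB1KO_PB arrays and 8.53, 8.80 and 9.0001 in CTNNB1KO_H2O arrays. Ecm1 values in WT livers were 8.18, 8.23, 8.10 and 8.11 in WT_PB and 8.03, 7.82, 8.20, 8.01 and 8.12 in WT_H2O. Its spread was small, and all CTNNB1KO arrays exceeded the WT arrays. Ecm1 rose by 0.74 ± 0.087 (adjusted p = 3.23e-06) and by 0.50 ± 0.093 (adjusted p = 0.000685). Fn1, fibronectin, was the exception of this group. Fn1 had 12.18, 12.30 and 12.55 in CTNNB1KO_PB arrays and 12.45, 12.50 and 12.58 in CTNNB1KO_H2O arrays. In WT livers Fn1 read 12.45, 12.40, 12.45 and 12.46 in WT_PB and 12.54, 12.52, 12.54, 12.47 and 12.47 in WT_H2O. It differed by 0.0069 ± 0.051 (adjusted p = 0.937) between the H2O groups and by -0.12 ± 0.055 (adjusted p = 0.112) between the PB groups. Without CTNNB1KO_PB replicate 3 the difference between the PB groups was -0.16 (adjusted p = 0.0145).

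Proteases and their inhibitors followed, with 2 of 4 higher without phenobarbital and 1 of 4 with it. Timp2 encodes a tissue inhibitor of metalloproteinases. Timp2 had 8.16, 8.28 and 8.56 in CTNNB1KO_PB arrays and 8.11, 8.39 and 9.23 in CTNNB1KO_H2O arrays. Timp2 values in WT livers were 7.64, 7.49, 7.72 and 7.41 in WT_PB and 7.46, 7.59, 7.80, 7.85 and 7.55 in WT_H2O. The genotypes did not overlap, and Timp2 rose by 0.88 ± 0.16 (adjusted p = 0.000437) and by 0.74 ± 0.17 (adjusted p = 0.00417). In a fit over all probe sets, 4 of its 5 tested probe sets were called without phenobarbital and 1 with it, and all 5 were positive in both comparisons. Mmp2 encodes the gelatinase that stellate cells secrete. Mmp2 had 5.40, 5.62 and 7.02 in CTNNB1KO_PB arrays and 5.24, 5.95 and 7.65 in CTNNB1KO_H2O arrays. In WT livers Mmp2 read 5.36, 5.02, 5.04 and 5.09 in WT_PB and 4.80, 5.49, 5.33, 5.26 and 5.50 in WT_H2O. Mmp2 rose by 1.13 ± 0.35 (adjusted p = 0.0233) in CTNNB1KO_H2O, and the PB groups differed by 0.82 ± 0.38 (adjusted p = 0.128). The first call was lost without replicates 2, 6 and 7 (0.43, adjusted p = 0.321), and also without CTNNB1KO_H2O replicate 2 (0.0514), CTNNB1KO_H2O replicate 6 (0.0522) or WT_H2O replicate 1 (0.0613). Timp1, another inhibitor, and Mmp14, which activates the Mmp2 proenzyme, were not called in either comparison. Timp1 had 4.33, 4.75 and 5.28 in CTNNB1KO_PB arrays and 4.41, 4.58 and 6.30 in CTNNB1KO_H2O arrays. Timp1 values in WT livers were 4.65, 4.76, 4.58 and 4.41 in WT_PB and 4.23, 4.58, 4.39, 5.05 and 4.42 in WT_H2O. Timp1 differed by 0.56 ± 0.28 (adjusted p = 0.15) without phenobarbital and by 0.24 ± 0.30 (adjusted p = 0.6) with it, and by -0.046 (0.896) in the untreated comparison without replicates 2, 6 and 7. Mmp14 had 6.68, 7.20 and 7.71 in CTNNB1KO_PB arrays and 7.11, 7.49 and 8.40 in CTNNB1KO_H2O arrays. In WT livers Mmp14 read 7.40, 7.23, 7.27 and 6.97 in WT_PB and 7.25, 6.98, 7.31, 7.14 and 7.36 in WT_H2O. Mmp14 differed by 0.43 ± 0.19 (adjusted p = 0.105) and by 0.036 ± 0.21 (adjusted p = 0.918), in the same order. Without CTNNB1KO_H2O replicate 4, Mmp14 gained an untreated call at 0.52 (adjusted p = 0.0453). 

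Both crosslinking enzymes of the list belong to the lysyl oxidases, which act on collagen and elastin. Lox had 4.76, 4.91 and 5.10 in CTNNB1KO_PB arrays and 4.77, 4.98 and 6.05 in CTNNB1KO_H2O arrays. Lox values in WT livers were 4.77, 4.74, 4.69 and 4.76 in WT_PB and 4.996, 4.89, 4.91, 5.06 and 4.82 in WT_H2O. Lox overlapped between genotypes and differed by 0.26 ± 0.15 (adjusted p = 0.222) without phenobarbital and by 0.18 ± 0.17 (adjusted p = 0.452) with it. Its other tested probe set was called in the untreated comparison, at 0.56 (adjusted p = 0.0446). Loxl1, a lysyl oxidase needed for elastic fibres, was below the filter level in all WT arrays. Loxl1 had 4.44, 4.72 and 5.17 in CTNNB1KO_PB arrays and 4.31, 4.68 and 6.23 in CTNNB1KO_H2O arrays. In WT livers Loxl1 read 4.25, 4.13, 4.43 and 4.08 in WT_PB and 4.31, 4.24, 4.37, 4.09 and 4.55 in WT_H2O. Against the filter level it was at least 1.46-fold higher in CTNNB1KO_H2O and the fitted adjusted p was 0.0319. In CTNNB1KO_PB it was above the filter level in 5 of 7 arrays and did not pass against WT_PB (adjusted p = 0.142). The untreated call was lost without any 1 of CTNNB1KO_H2O replicates 2, 6 and 7 or of WT_H2O replicates 1, 2, 3 and 4 (adjusted p between 0.0519 and 0.0727), and without replicates 2, 6 and 7 together the difference was 0.21 (0.374) and the mean of the remaining arrays lay below the filter level.

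Signalling members rose in the untreated comparison (3 of 3), with very different sizes. Bmper encodes a secreted regulator of bone morphogenetic proteins. Bmper had 5.21, 6.69 and 7.46 in CTNNB1KO_PB arrays and 5.65, 6.96 and 8.38 in CTNNB1KO_H2O arrays. Bmper values in WT livers were 3.65, 4.06, 3.69 and 4.06 in WT_PB and 4.28, 3.75, 3.89, 4.02 and 4.13 in WT_H2O. All 9 WT arrays were below the filter level and all 14 CTNNB1KO arrays were above it. Against that level Bmper was at least 5.16-fold higher in CTNNB1KO_H2O, or at least 3.2-fold without replicates 2, 6 and 7, and at least 4.19-fold higher in CTNNB1KO_PB. The fitted adjusted p was 8.27e-05 without phenobarbital and 0.000311 with it. Ltbp1 encodes the protein that tethers latent transforming growth factor beta to the matrix. Ltbp1 had 4.80, 5.05 and 5.43 in CTNNB1KO_PB arrays and 4.94, 5.42 and 6.30 in CTNNB1KO_H2O arrays. In WT livers Ltbp1 read 4.64, 4.65, 4.81 and 4.08 in WT_PB and 4.69, 4.52, 4.37, 4.22 and 4.56 in WT_H2O. It rose by 1.07 ± 0.19 (adjusted p = 0.000315) in CTNNB1KO_H2O, and the PB groups differed by 0.54 ± 0.20 (adjusted p = 0.0605). Its other tested probe set did not follow, with -0.049 (adjusted p = 0.733) and -0.31 (adjusted p = 0.0342) in the same comparisons when every probe set was fitted. Tgfb1 encodes transforming growth factor beta 1, the main fibrogenic cytokine. Tgfb1 had 4.70, 4.84 and 4.99 in CTNNB1KO_PB arrays and 4.63, 4.999 and 5.24 in CTNNB1KO_H2O arrays. Tgfb1 values in WT livers were 4.69, 4.57, 4.24 and 4.61 in WT_PB and 4.48, 4.85, 4.70, 4.44 and 4.73 in WT_H2O. The values were near the filter level. Tgfb1 rose by 0.30 ± 0.11 (adjusted p = 0.0404) and by 0.32 ± 0.11 (adjusted p = 0.0474). Its untreated call was lost without any 1 of CTNNB1KO_H2O replicates 1, 2, 6 and 7 or WT_H2O replicates 1, 3 and 4 (adjusted p between 0.0563 and 0.112), and was 0.19 (0.324) without replicates 2, 6 and 7 together. The call in the PB groups was lost in 15 of the 31 alternatives in which the gene was tested, with adjusted p-values up to 0.208.

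**Figure D3:**
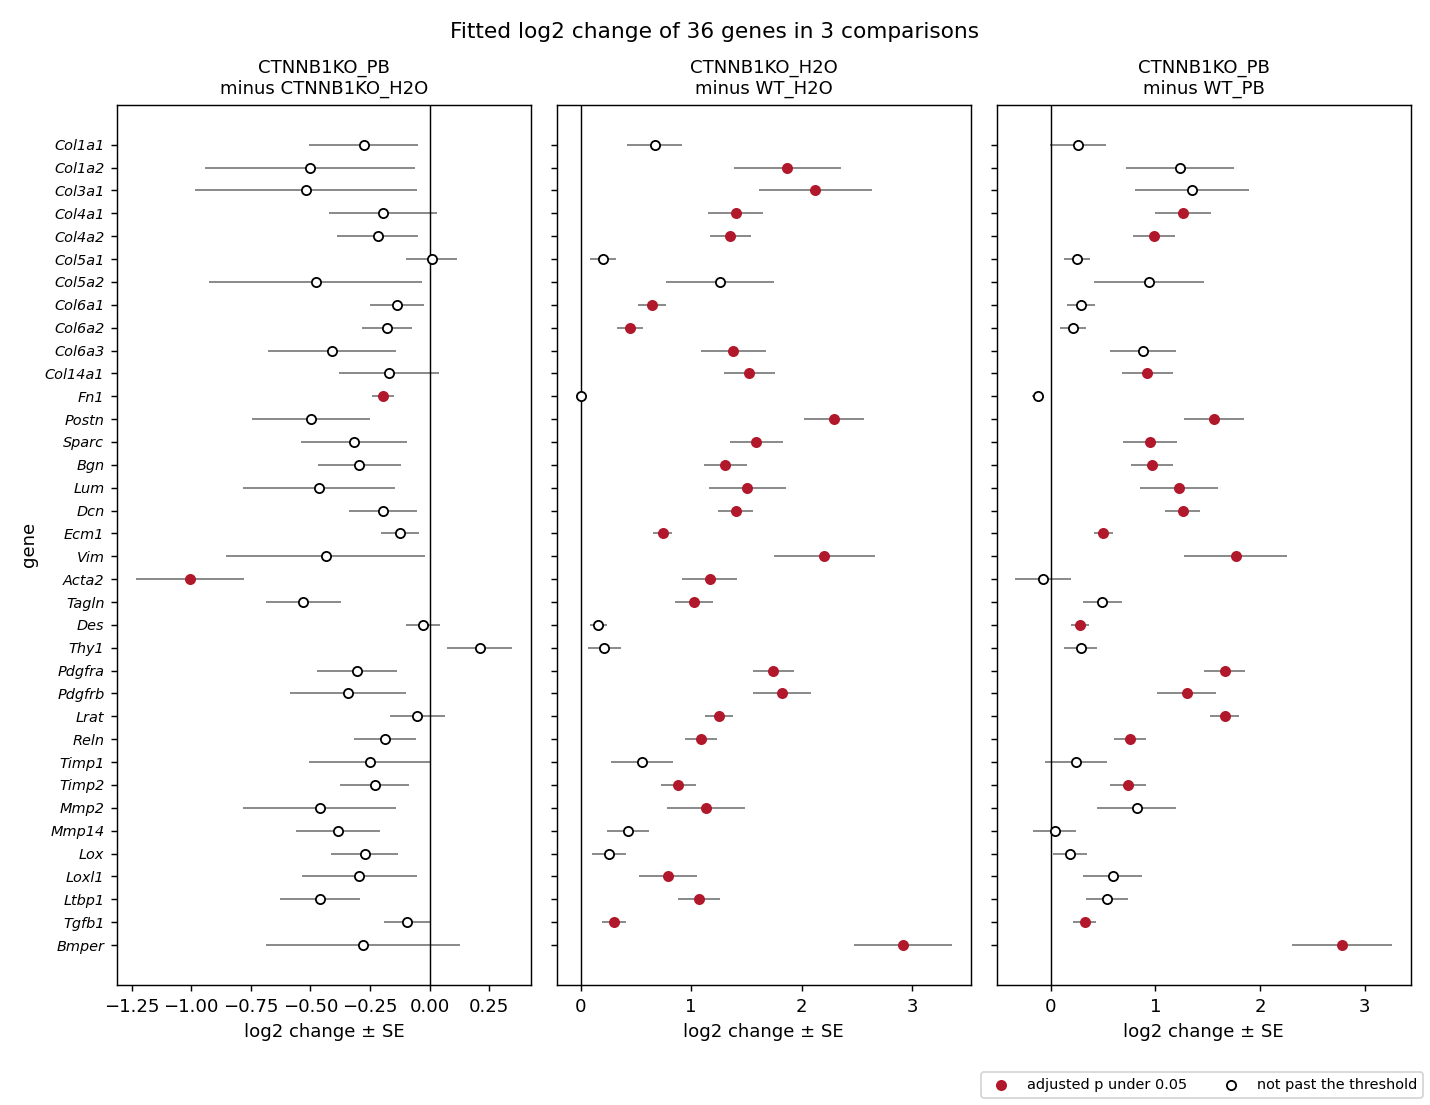
Fitted log2 change ± SE (horizontal axis) of the 36 genes in 3 comparisons, CTNNB1KO_PB minus CTNNB1KO_H2O, CTNNB1KO_H2O minus WT_H2O and CTNNB1KO_PB minus WT_PB. Axis ranges differ between the panels, and filled points passed an adjusted p of 0.05. Filled points lie on the positive side in both genotype comparisons (27 and 18 genes), and 2 lie on the negative side for phenobarbital in CTNNB1KO.

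Phenobarbital changed few of these genes in livers without hepatocyte Ctnnb1. Relative to CTNNB1KO_H2O, 2 of 36 genes fell in CTNNB1KO_PB and none rose, while 2.05% of all tested genes changed, 0.882% falling and 1.17% rising. No gene of the list separated the 2 groups without overlap, against 0.636% of all genes higher and 0.34% lower. The differences were negative for 34 genes, with a median of -0.279 beside 0.00564 for all genes, and 5 had an unadjusted p under 0.05. That median turned to 0.13 when CTNNB1KO_H2O replicates 2, 6 and 7 were left out.

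Acta2 had the largest change. With the array values given above, it differed by -1.01 ± 0.23 (adjusted p = 0.022) between CTNNB1KO_PB and CTNNB1KO_H2O, and the 2 groups overlapped. The call was lost without CTNNB1KO_H2O replicates 2, 6 and 7 (-0.82, adjusted p = 0.0777) and when only the 2 compared groups were fitted (adjusted p = 0.0915). The direction was the same in all 34 alternatives, with values between -1.17 and -0.34. The probe set is of the type that can bind related transcripts, and actin genes are close in sequence. Tagln differed by -0.53 ± 0.16 (adjusted p = 0.0858). It passed the test without CTNNB1KO_H2O replicate 1 (adjusted p = 0.0394) or replicate 5 (0.0474). Fn1 fell by a small amount, -0.20 ± 0.047 (adjusted p = 0.0271). This call was lost in 8 of the 34 alternatives, among them the omission of CTNNB1KO_H2O replicate 1 or 6 or of CTNNB1KO_PB replicate 1, 2, 4 or 7, with adjusted p-values up to 0.131. The other Fn1 probe set gave -0.43 (adjusted p = 0.0971) in a fit over all probe sets.

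Among the other genes of the list, the quiescence marker Lrat differed by -0.052 ± 0.12 (adjusted p = 0.888), with a 95% interval of -0.29 to 0.19. Reln differed by -0.19 ± 0.13 (adjusted p = 0.553). The collagen differences were -0.28 ± 0.23 (adjusted p = 0.632) for Col1a1 and -0.52 ± 0.46 (adjusted p = 0.67) for Col3a1, whose interval of -1.48 to 0.44 is wide. Among the signalling genes, Ltbp1 differed by -0.46 ± 0.17 (adjusted p = 0.179) and Tgfb1 by -0.094 ± 0.097 (adjusted p = 0.72). None of these 6 passed the test. Without CTNNB1KO_H2O replicates 2, 6 and 7 the sign turned for both collagens. Col3a1 averaged 9.89 in CTNNB1KO_PB against 9.37 in the remaining CTNNB1KO_H2O arrays, and Col1a1 4.95 against 4.78. It also turned slightly for Lrat (8.37 against 8.35) and Tgfb1 (4.85 against 4.84), and stayed negative for Reln and Ltbp1.

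In wild-type livers phenobarbital changed none of the 36 genes by limma, against 3.85% of all tested genes (1.95% higher, 1.9% lower), and 1 had an unadjusted p under 0.05. The median difference was 0.0283, beside 0.00787 for all genes. The fit took 1 variance per gene over all groups, the CTNNB1KO groups included. The median SD of the 36 genes was 0.301 in CTNNB1KO_PB and 0.533 in CTNNB1KO_H2O, against 0.151 in WT_PB and 0.173 in WT_H2O. In a fit of the WT groups alone, 2 of the 36 genes passed and 6.72% of all tested genes changed. The count in WT livers therefore depended on which groups were fitted. Col14a1 had all 4 WT_PB arrays above the 5 WT_H2O arrays (6.04% of all genes), and Fn1 and Lox had all of them below (5.56% of all genes). Col14a1 differed by 0.43 ± 0.26 (adjusted p = 0.488), and passed in a fit of the WT groups alone (0.029). The second Fn1 probe set differed by -0.65 (adjusted p = 0.0291) between WT_PB and WT_H2O in the fit over all probe sets, and the mean of both Fn1 probe sets by -0.36 (0.0403). The largest negative difference was that of Lrat, -0.46 ± 0.15 (adjusted p = 0.0845), which passed the test without WT_PB replicate 2 (-0.57, adjusted p = 0.042), with array weights (0.00572), in a fit of the WT groups alone (0.0427), and without CTNNB1KO_H2O replicates 2, 6 and 7 (0.0391). Acta2, the gene with the largest change in CTNNB1KO, differed by 0.23 ± 0.28 (adjusted p = 0.803) in WT.

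The difference between the 2 phenobarbital responses was tested directly as an interaction. None of the 36 genes passed, against 0.875% of all tested genes (0.354% higher, 0.521% lower), and 3 had an unadjusted p under 0.05. For Acta2 the response in CTNNB1KO minus that in WT was -1.24 ± 0.36 (adjusted p = 0.141). Without CTNNB1KO_H2O replicate 5 it was -1.40 (adjusted p = 0.0385). For Lrat it was 0.41 ± 0.19 (adjusted p = 0.449), with an unadjusted 95% interval of 0.024 to 0.80. Responses of the listed genes were therefore not shown to differ between the genotypes.

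Related genes outside the list were counted in 8 sets, drawn up with earlier results of these arrays known. These counts were not repeated without genes that passed the filter only through the CTNNB1KO arrays. In CTNNB1KO_H2O over WT_H2O, where 14.8% of all tested genes rose and 10.1% fell, 10 of 14 other stellate cell genes rose and none fell. They included Ednrb, an endothelin receptor (1.58, adjusted p = 2.71e-06), Rgs5, a pericyte regulator of G protein signalling (1.39, 1.53e-08), and Colec11, a collectin (1.37, 1.63e-06). Of 14 genes of the transforming growth factor beta pathway, 10 rose and 1 fell. The receptor Tgfbr2 rose by 1.75 (adjusted p = 0.00147), the induced matrix protein Tgfbi by 1.70 (6.46e-06) and Ccn2, connective tissue growth factor, by 0.96 (0.00817), while the signal transducer Smad4 fell by 0.24 (0.00728). Without replicates 2, 6 and 7 the differences were 1.06 for Tgfbr2 (0.0223) and 0.58 for Ccn2 (0.138). Of the 4 ligands of platelet-derived growth factor receptors, Pdgfd rose by 1.12 (adjusted p = 0.00522), or 0.57 (0.0792) without the same 3 arrays. Averaging probe sets gave 0.57 (0.00635) for Tgfbr2.

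Collagen-processing genes rose in 9 of 15 cases and fell in 1. Pcolce, which enhances procollagen cleavage, rose by 1.34 (adjusted p = 0.00184), the lysyl oxidase Loxl4 by 1.04 (0.00129) and the collagen chaperone Serpinh1 by 0.91 (0.0144), while the prolyl hydroxylase subunit P4ha2 fell by 0.40 (0.0319). Of 17 other basement membrane genes, 5 rose and 2 fell. Nidogen 1 (Nid1) rose by 1.90 (0.00147), Lamb1 by 1.15 (0.000271) and Lamc1 by 0.70 (0.000315). The last pair are laminin chains. The epithelial laminin chain Lama3 fell by 0.93 (0.02) and perlecan (Hspg2) by 0.25 (0.00714). Of 23 other matrix proteins, 11 rose and 1 fell. The elastic-fibre proteins Efemp1 (1.51, 0.00359) and Fbln5 (1.41, 0.00162) and the calcification inhibitor Mgp (1.42, 0.0138) rose, and osteomodulin (Omd) fell by 0.80 (0.000707). Without CTNNB1KO_H2O replicates 2, 6 and 7 the calls of Serpinh1, Lama3, Hspg2, Efemp1 and Mgp were lost, at 0.37 (0.181), -0.55 (0.189), -0.20 (0.0655), 0.999 (0.07) and 0.68 (0.222) in this order, and Nid1 differed by 1.12 (0.0138). The call of P4ha2 was lost without WT_H2O replicate 1 (0.101) or any 1 of WT_H2O replicates 2 and 5 and CTNNB1KO_H2O replicates 2 and 5, and that of Lama3 without WT_H2O replicate 2 (0.0565). Averaging probe sets gave 0.91 (0.00307) for Nid1 and 0.72 (0.00336) for Fbln5, and ended the call of Hspg2 (-0.056, 0.416).

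Other proteases and inhibitors rose in 4 of 12 cases, Mmp13 by 1.76 (adjusted p = 0.0252), Timp3 by 0.92 (2.52e-05) and Adamts1 by 0.88 (3.62e-05). The call of Mmp13 was lost without CTNNB1KO_H2O replicates 2, 6 and 7 (0.90, 0.285), and without CTNNB1KO_H2O replicate 6 (0.0546) or 7 (0.053) or WT_H2O replicate 1 (0.0501). Other contractile genes rose in 9 of 15 cases, the tropomyosin Tpm4 by 1.30 (0.00383), the myosin light chain Myl9 by 1.08 (0.00177) and filamin A (Flna) by 1.004 (0.00218). With phenobarbital in CTNNB1KO livers, 2 contractile genes and 1 matrix protein fell and none of the tested genes of the 8 sets rose. The tropomyosin Tpm2 differed by -0.74 (adjusted p = 0.00252), the myosin light chain kinase Mylk by -0.32 (0.0232) and tenascin-X (Tnxb) by -0.37 (0.00987). Averaging probe sets ended the calls of Tpm2 (-0.34, 0.098) and Mylk (-0.21, 0.0821). In WT livers phenobarbital raised Omd by 0.87 (0.00437) and Col16a1, a fibril-associated collagen, by 0.51 (0.00267). The interaction passed for Tnxb (-0.58, 0.0184) and Col16a1 (-0.54, 0.0325), of which the second was lost in 9 of the 33 alternatives, and the first without WT_PB replicate 3 (0.0536) or 4 (0.0556).

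In CTNNB1KO_PB over WT_PB, where 11.9% of all tested genes rose and 8.12% fell, the same sets were counted again. The other stellate cell genes had 7 of 14 higher and none lower, with Ednrb at 1.37 (adjusted p = 3.69e-05), the transcription factor Tcf21 at 1.11 (0.00374) and Colec11 at 1.09 (6.78e-05). The transforming growth factor beta pathway had 3 of 14 higher, Tgfbi at 1.502 (6.56e-05), Ccn2 at 0.97 (0.0134) and the co-receptor Tgfbr3 at 0.57 (0.000364). Other matrix proteins had 4 higher and 3 lower of 23, among them Efemp1 at 1.90 (0.00109), Mgp at 1.53 (0.0158) and the elastin-associated Emilin1 at 0.93 (0.00315). The lower ones were Omd at -1.24 (1.39e-05), Col16a1 at -0.53 (0.000285) and Col12a1 at -0.23 (0.0311). Basement membrane genes had 2 of 17 higher, a share near that of all tested genes, Nid1 at 1.47 (0.0164) and Lamb1 at 0.70 (0.0223), and 2 lower, Lama3 at -1.36 (0.0031) and Lamb3 at -0.33 (0.0497). Collagen-processing genes had Pcolce2 at 1.32 (0.00137) and Pcolce at 0.99 (0.0239) higher and P4ha2 at -0.61 (0.00502) lower, of 15, also near the share of all genes. Contractile genes had Tpm4 at 0.96 (0.0386) and the actin crosslinker Actn1 at 0.68 (0.000982) higher and Mylk at -0.42 (0.00144) lower, of 15, again near it. Pdgfd differed by 1.02 (0.0173) and Timp3, of 12 proteases and inhibitors, by 0.48 (0.0155). The calls of Ccn2, Mgp, Nid1, Lamb1, Lamb3, Col12a1, Pcolce, Tpm4, Pdgfd and Timp3 were each lost when some single array of the compared groups was left out, with the largest adjusted p for Lamb3 without WT_PB replicate 1 (0.155). Averaging probe sets gave 0.78 (0.00432) for Ednrb, 0.42 (0.0452) for Tcf21, 0.64 (0.0428) for Nid1 and -0.73 (0.00429) for Lama3, and ended the call of Tgfbr3 (0.0844).

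Markers of other cell types also differed between the genotypes. Of 13 macrophage markers, 9 rose in CTNNB1KO_H2O over WT_H2O and 9 in CTNNB1KO_PB over WT_PB, comparisons in which 14.8% and 11.9% of all tested genes rose. Their mean signal per array ranged over 6.98 to 8.68 in CTNNB1KO_PB and 7.06 to 9.14 in CTNNB1KO_H2O, against 6.28 to 6.54 in WT_PB and 6.44 to 7.01 in WT_H2O. Of 11 endothelial markers, 9 rose in the untreated comparison and 8 in the phenobarbital comparison, with array means of 6.86 to 7.26 in CTNNB1KO_PB and 6.97 to 7.66 in CTNNB1KO_H2O, against 6.45 to 6.71 in WT_PB and 6.40 to 6.66 in WT_H2O. Pecam1, a defining endothelial marker, was below the filter level in all WT arrays and so passed the filter only through the CTNNB1KO arrays. The endothelial counts include it, and no marker count was repeated without such genes. Stab2 and Clec4g, of sinusoidal endothelium, were above the filter level in every array. Of 3 tested cholangiocyte markers, 2 rose without and 1 with phenobarbital, and the defining markers Krt7 and Cftr were below the filter level in all 23 arrays. Of 3 tested neutrophil markers, 2 rose without and 1 with phenobarbital, with Mpo below the filter level throughout. Of 3 tested mesothelial markers, 2 rose without and 1 with phenobarbital, and the defining marker Wt1 was above the filter level in 1 of 23 arrays. Of 4 lymphocyte markers, Cd4 fell without phenobarbital (-0.32, adjusted p = 0.00809) and no other was called. The erythroid marker Alas2 differed by -0.49 without (adjusted p = 0.0914) and -0.63 with phenobarbital (0.0506). No marker of these 7 lists passed the test for phenobarbital in CTNNB1KO. The neutrophil markers S100a8 and S100a9 differed there by -1.51 (adjusted p = 0.0979) and -1.17 (0.0559), beside the change of Acta2 in the same comparison. Their part in the differences of the matrix genes was not tested.

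The array means of the 36 genes were 7.20 to 7.94 in CTNNB1KO_PB and 7.38 to 8.67 in CTNNB1KO_H2O, against 6.59 to 6.80 in WT_PB and 6.65 to 6.80 in WT_H2O. In CTNNB1KO_H2O replicates 3, 4 and 5 the macrophage markers averaged 7.06, 7.17 and 7.17, close to the highest WT_H2O array, and 27, 24 and 24 of the 36 matrix genes lay above all 9 WT arrays there, against 17.6%, 18.2% and 18.5% of all tested genes. In CTNNB1KO_H2O replicate 1 the macrophage mean was 8.56 while the matrix mean was 7.43, with 24 genes above all WT arrays (21.9% of all tested genes). CTNNB1KO_PB replicate 2 had the lowest macrophage mean of its group, 6.98, which was above all WT_PB arrays and inside the WT_H2O range, and 20 genes lay above all WT arrays there (20.6% of all tested genes). In CTNNB1KO_H2O replicates 2, 6 and 7 the macrophage means were 8.896, 9.14 and 8.47 and the matrix means 8.36, 8.67 and 8.13. The macrophage means of CTNNB1KO_PB replicates 1 to 7 were 7.69, 6.98, 8.01, 8.497, 8.68, 7.19 and 8.58. Their matrix means were 7.41, 7.20, 7.45, 7.94, 7.84, 7.297 and 7.68. Replicates 2, 6, 1 and 3 were lowest in both, in this order. Whether the 2 levels depend on each other was not tested. Over the 14 CTNNB1KO arrays, 19 of the 36 genes were above every WT array in all of them, as were 3.2% of all tested genes. Bmper, which passed the filter only through the CTNNB1KO arrays, is among the 19 and in each count per array given here.

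**Figure D4:**
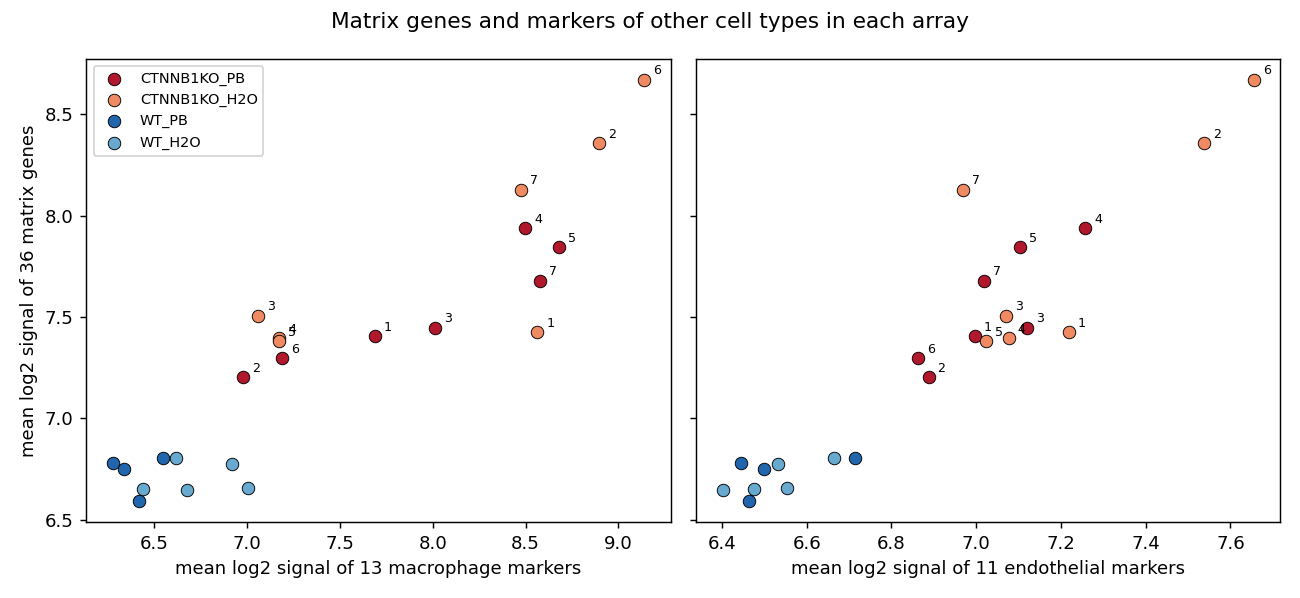
Mean log2 signal of the 36 matrix genes (vertical axis) against the mean of 13 macrophage markers (left) and 11 endothelial markers (right), 1 point per array, with replicate numbers beside the CTNNB1KO arrays. All CTNNB1KO arrays lie above all WT arrays on the vertical axis, from 7.20 upward against 6.80 at most, and CTNNB1KO_H2O replicates 2, 6 and 7 stand highest.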

How the data were processed

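Total RNA of whole liver was labelled by a 3' in vitro transcription protocol and hybridised to Affymetrix arrays, per the labels' protocols. The authors deposited log2 signals per probe set, made by RMA with the affy package, per the submitters' processing notes; versions are not given in the sources used here. Of 45037 probe sets, 34945 carry 1 gene in the platform annotation, 932 several and 9160 none listed. Each of 18193 genes was represented by its brightest single-gene probe set. The 13826 genes above the 40th percentile of an array's probe sets in at least 4 arrays were tested with limma 3.58.1 in R 4.3.3, with 1 mean per group over all 23 arrays, empirical Bayes variances, two-sided tests and Benjamini-Hochberg adjustment over all tested genes. A gene counted as changed at an adjusted p under 0.05. The 5 comparisons were phenobarbital in each genotype, genotype in each treatment and their interaction. Array medians were 5.09 to 5.14.

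Members and lists were chosen with earlier results of these data known. By rule, values are given for members changed in a comparison and for Acta2, Col1a1, Col3a1, Tgfb1, Lrat and Reln; the other members are given in the same way. Every WT array is printed, and the CTNNB1KO groups by lowest, median and highest array, except for Acta2. From each related list up to 3 genes per direction are named. Replicate numbers did not pair the arrays: same-numbered deviations correlated between -0.695 and 0.628 over the 7 CTNNB1KO pairs. The procedure was tested on simulated data with independent values and the same SD of a gene in all groups. The uneven spread of the CTNNB1KO arrays was not simulated. Promoter sequences are RefSeq's, build GRCm38.p6.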

Additional observations from a re-analysis of the deposited data

Results flagged for a closer look

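In 4 of 144 gene and group combinations, 1 array stood apart from the others of its group by Dixon's criterion, which chance meets in about 1 of 20 groups. Col5a2 read 5.28 in WT_PB replicate 4, below the next array at 5.62. Col6a2 read 7.12 in CTNNB1KO_PB replicate 5, above the next at 6.90. Col14a1 read 8.32 in WT_PB replicate 2, above the next at 8.06. Fn1 read 12.40 in WT_PB replicate 2, below the next at 12.45.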

How the results depend on the processing

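Each comparison was refitted under 34 alternatives (33 for the interaction), of which 2 were chosen after seeing the data: leaving out CTNNB1KO_H2O replicates 2, 6 and 7 together, and taking the filter percentile over 1 probe set per gene. No call changed direction. For CTNNB1KO_H2O against WT_H2O, 21 of the 27 called genes were called in every alternative in which they were tested, and for CTNNB1KO_PB against WT_PB 12 of 18. Both counts include Bmper, which passed the filter only through the CTNNB1KO arrays. Leaving out 1 array gave 24 to 30 and 15 to 22 called genes of the list in these comparisons. Over all 13826 tested genes, 2667 to 3903 and 1798 to 3287 were then changed in either direction, against 3453 and 2772 in the main fit. The counts were 24 and 26 with array weights, 24 and 26 with only the compared groups, and 21 and 27 without replicates 2, 6 and 7, so their order turned in these 3 fits. The shares of all tested genes that were higher turned too, at 11% and 19.3%, 9.19% and 15.1%, and 7.07% and 17.5% in the same order. With the replicate block the counts were 23 and 13, and 8.77% and 6.65% of all tested genes were higher, against 14.8% and 11.9% in the main fit. For phenobarbital in CTNNB1KO the count of 2 became 0 with only the compared groups in the fit, 1 with the replicate block and 1 without replicates 2, 6 and 7, and was 1 to 3 when 1 array was left out. Neither Acta2 nor Fn1 was called throughout. For phenobarbital in WT the count of 0 became 1 with array weights, 1 with the mean of probe sets, 2 with only the compared groups and 1 without replicates 2, 6 and 7, and was 0 to 1 when 1 array was left out. The interaction count of 0 was 0 to 1 when 1 array was left out. The replicate block ended the CTNNB1KO_PB against WT_PB calls of Col14a1, Sparc, Vim, Lum and Tgfb1, the CTNNB1KO_H2O against WT_H2O calls of Col1a2, Loxl1, Mmp2 and Tgfb1, and the phenobarbital call of Fn1 in CTNNB1KO, and changed no other call of the 36 genes. Over all tested genes, the 284 genes changed by phenobarbital in CTNNB1KO became 100 with only the compared groups and 786 without replicates 2, 6 and 7. The 532 changed in WT became 929 and 810, and 1503 with array weights. The cause of these changes was not tested. Probe sets near the filter level, such as those of Tgfb1, Loxl1 and Ltbp1, limit what can be read from small differences.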
